A study of Sus scrofa with 15 samples.

Results

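A set of 10 chemokine genes was followed in the testes of male piglets fed 5 diets: CCL22, CCL19, CCL21, CCL2, CCL5, CXCL9, CXCL10, CXCL12, CXCL14 and CXCL13. They were chosen by gene symbol, with earlier results of these data known. Of these 10 genes, 9 had a row among the 30476 genes of the count table. CXCL13 was not analysed here. All 9 passed the filter on low counts, as did 15634 genes of the whole table.

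The libraries came from testes of Dutch Landrace Duroc piglets on postnatal day 21, with 3 libraries per diet. Each library was taken as 1 piglet, and whether RNA of several piglets was pooled was not determined. All piglets suckled until day 2, and from then until day 21 the Sow group was given milk of the sow, the Milk group a formula made from cow's milk and the Soy group a formula made from soy. The M + E2 and M + G groups had the formula of the Milk group with 17-beta-estradiol or genistein added. Genistein is an isoflavone of soy that can bind estrogen receptors. It was given at 84 mg/L, which the methods describe as the concentration of the diet and the sample labels as that of the serum. Estradiol was the positive control for estrogen action, and Milk is the control diet for both additions. In the column names, 1 Sow and 1 Soy library carry no number. Below they go by the names Sow unnumbered and Soy unnumbered.

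Chemokines are small secreted proteins that guide leukocytes along concentration gradients by binding receptors that couple to G proteins. Their names follow the spacing of the first cysteines, adjacent in the CC family and separated by another residue in the CXC family. Homeostatic members, such as CCL19, CCL21, CXCL12 and CXCL13, position cells in resting tissue and lymphoid organs, whereas inflammatory members, such as CCL2, CCL5, CXCL9 and CXCL10, are induced by cytokines. In the testis, germ cells lie behind the blood-testis barrier, and macrophages are the most abundant resident leukocytes of the interstitium.

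Levels are TMM-normalized CPM, that is, reads of a gene scaled to a fixed total per library and corrected for library composition. The libraries held between 6097552 and 9488579 reads on genes (median 8198038), and a gene with 0 reads could be present at up to 0.314 to 0.443 CPM, the value of 3 reads. Sow 2 stood apart from the other libraries (lowest r of 0.865 with another library, against a median of 0.958 over all pairs). It was left out of the tests and is shown with the levels, so that Sow has 2 libraries in each test. The same library was left out by the authors. Markers of the labelled tissue were present in every library, with summed levels of 3130 to 8150 CPM for 8 Sertoli cell genes and 10700 to 25100 CPM for 6 Leydig cell genes. Whether the counts include reads that were mapped first to a curated porcine gene library was not determined, so the counts of a gene may be partial. Bulk RNA cannot separate fewer cells of a type from less RNA per cell.

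**Figure D1:**
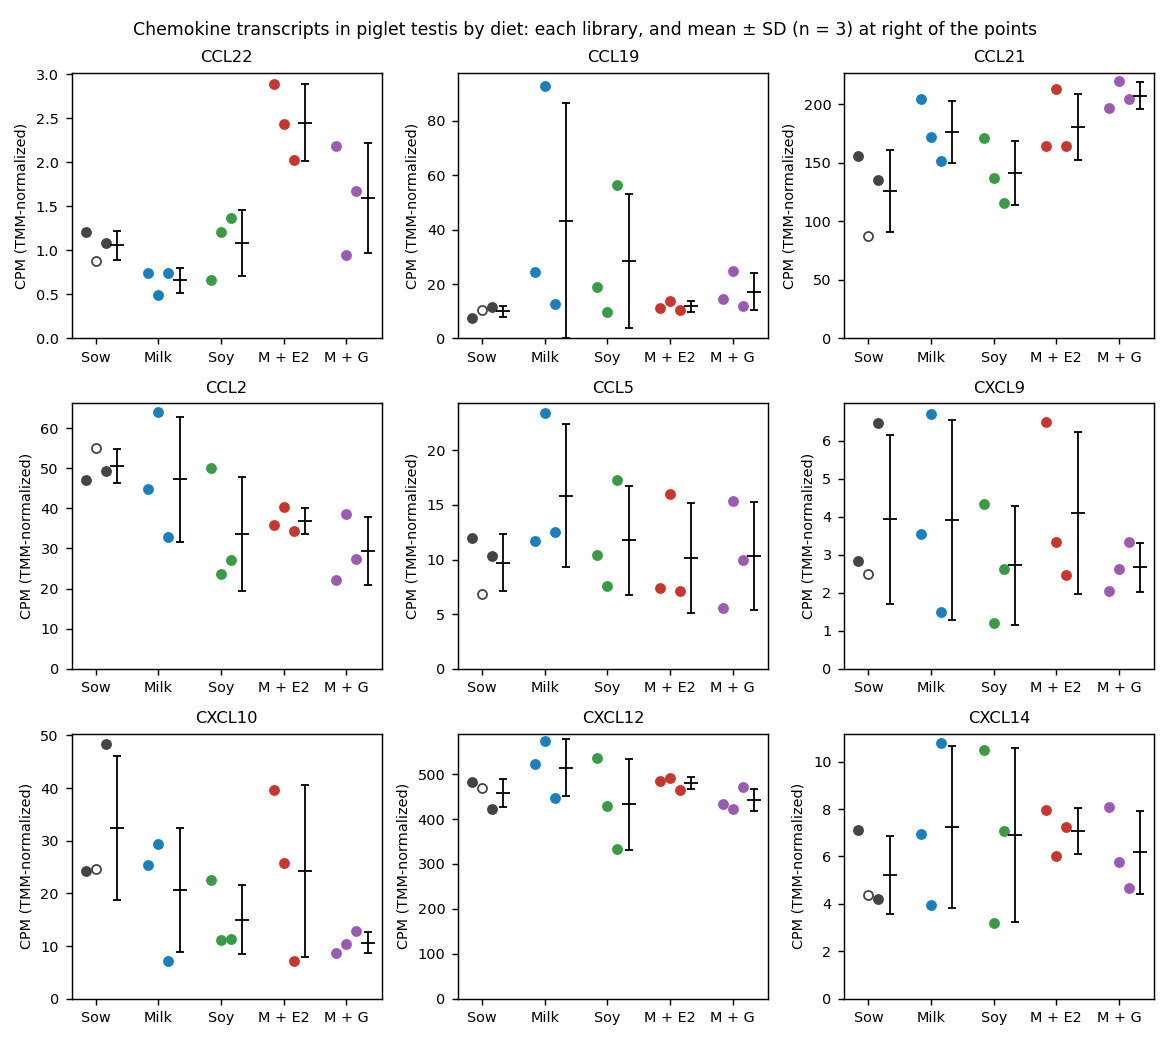
Levels of the 9 chemokine genes in each library (CPM, linear axes starting at 0), by diet; the open circle is Sow 2, and the bar is the mean ± SD of 3 libraries. CCL22 lies between 2.02 and 2.89 CPM in M + E2 and between 0.496 and 0.747 CPM in Milk, and CCL19 is carried by Milk 2 (92.9 CPM) and Soy 3 (56.3 CPM).

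None of the 9 chemokine genes was called in any of the 10 pairwise comparisons of the diets. A gene was called when its change was at least 2-fold and its p from edgeR's quasi-likelihood F test, adjusted by Benjamini-Hochberg over all 15634 genes, was not above 0.05. The count was 0 of 90 tests, with an unadjusted p under 0.05 in 11 of them (12.2%) and groups that did not overlap in 14. Over all genes, the shares by comparison were 2.44% to 33.8% with such a p and 4.62% to 62.3% without overlap. The same rule called 5.0% of all genes in M + E2 relative to Sow, 0.0576% in M + G, 0.0128% in Soy and 0.0192% in Milk relative to Sow, and 0.147% in Soy relative to M + E2. In the other 5 comparisons (M + E2, M + G and Soy relative to Milk, M + E2 relative to M + G and Soy relative to M + G) it called 0 genes, with an unadjusted p under 0.05 for 17.7%, 2.60%, 2.44%, 7.01% and 3.65% of genes. The 781 genes called in M + E2 relative to Sow depended on single libraries. They were 6 without any 1 of the M + E2 libraries, 10 without Soy 2, 38 without M + G 3, 45 without M + G 1 and 301 without M + G 2. They were 1208 without Soy 3, 1326 without Soy unnumbered, 1533 without Milk 3, and 2891 and 3324 without Sow unnumbered and Sow 3 (each with Sow 2 put back).

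Relative to Sow, the counts of chemokine genes stood beside high shares of all genes. In M + E2, 1 of 9 had an unadjusted p under 0.05 and 3 did not overlap with Sow, where the shares over all genes were 33.8% and 62.3%. In M + G the counts were 3 and 4 (23.6% and 53.9% of all genes), in Soy 0 and 1 (15.0% and 37.3%) and in Milk 1 and 2 (12.1% and 31.0%). Relative to Milk, 2 of 9 had an unadjusted p under 0.05 in M + E2 (17.7% of all genes) and 2 in M + G (2.60%). Of all genes, 17.5% did not overlap between M + E2 and Milk and 4.66% between M + G and Milk, and CCL22 was the only 1 of the 9 in either comparison. Of the remaining comparisons, 1 gene did not overlap in Soy relative to M + E2 (20.6% of all genes, 13.0% with an unadjusted p under 0.05) and 1 in Soy relative to M + G (7.89% and 3.65%), and 0 did not overlap in Soy relative to Milk (4.62%) or M + E2 relative to M + G (19.2%).

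The median log2 difference over the 9 genes was between −0.54 (M + G relative to Milk) and 0.19 (Soy relative to M + G), beside medians of −0.03 to 0.03 over all genes tested. In a single test over the 5 diets, 0 of 9 passed an adjusted p of 0.05, as did 0.0640% of all genes (10 genes). The unadjusted p was 0.00581 for CCL22 and 0.0474 for CCL19 (adjusted p = 0.202 and 0.272), and 18.1% of all genes were under 0.05.

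**Figure D2:**
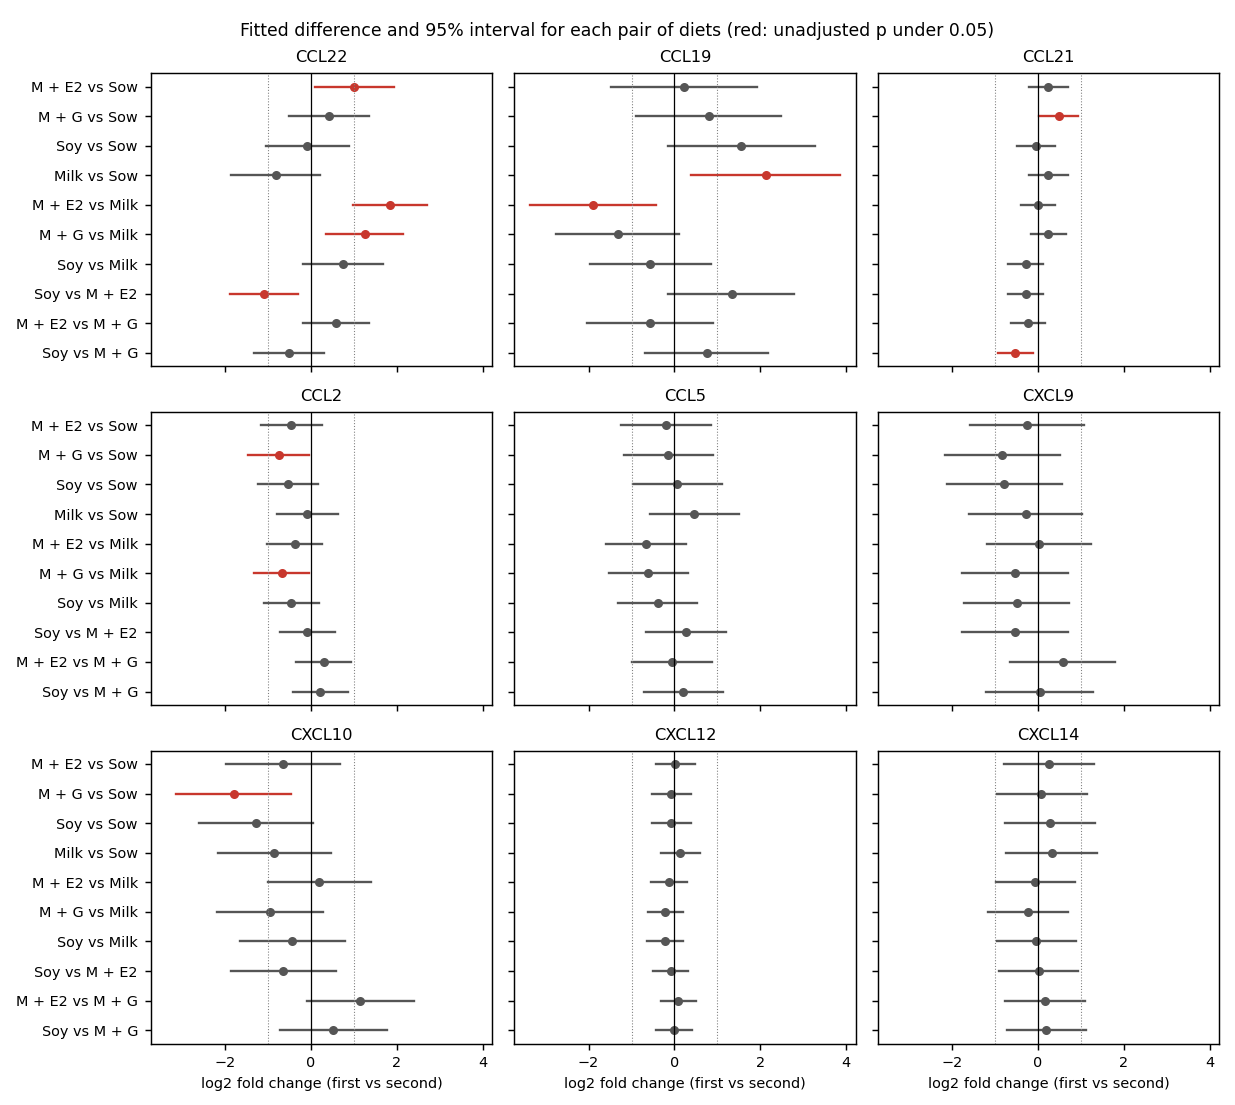
Fitted log2 fold change of each chemokine gene (point) with its 95% interval (line) for the 10 pairs of diets, the first named relative to the second; dotted lines mark a 2-fold change and red an unadjusted p under 0.05. CCL22 in M + E2 relative to Milk (1.84) lies farthest from 0 for its error, and every interval of CXCL12 holds 0.

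CCL22, a ligand of CCR4 made mainly by dendritic cells and macrophages, had the lowest p of the 9 genes and its highest level in M + E2. The gene (ENSSSCG00000002821) lies on chromosome 6 at 19296726 to 19301506 of Sscrofa11.1. Its reads were few in every library. In M + E2 there were 20, 19 and 19 reads in libraries 1, 2 and 3, or 2.89, 2.43 and 2.02 CPM. In Milk there were 5, 4 and 6 reads, or 0.739, 0.496 and 0.747 CPM. The ranges of these diets did not overlap, and M + E2 was above all Sow and Soy libraries as well. CCL22 was at 1.21, 0.876 and 1.08 CPM in Sow unnumbered, Sow 2 and Sow 3 (9, 6 and 9 reads). It was at 0.657, 1.21 and 1.37 CPM in Soy unnumbered, Soy 2 and Soy 3 (5, 11 and 12 reads). In M + G it was at 2.18, 0.941 and 1.67 CPM (17, 9 and 15 reads), so that M + G 1 reached the range of M + E2 while M + G 2 lay within that of Sow.

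The order of the CCL22 means was M + E2 (2.45 ± 0.434 CPM, SD, n = 3), M + G (1.60 ± 0.624), Soy (1.08 ± 0.372), Sow (1.06 ± 0.168) and Milk (0.661 ± 0.143). Neighbours in this order overlapped, except Sow and Milk. CCL22 was 3.58-fold higher in M + E2 than in Milk by the fit, a log2 difference of 1.84 (SE 0.403, 95% interval 0.97 to 2.71), with an unadjusted p of 0.000496 and an adjusted p of 0.175 in edgeR's quasi-likelihood test. It ranked 42 among the 15634 genes by p in that comparison, in which no gene was called. The summed reads gave 2.4 CPM (exact Poisson interval 1.82 to 3.11) in M + E2 and 0.656 CPM (0.367 to 1.08) in Milk, intervals that cover counting error only. Relative to Sow, the log2 difference in M + E2 was 1.01 (SE 0.424, 0.10 to 1.93, adjusted p = 0.115).

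Genistein gave a smaller value for CCL22 in the same direction. The log2 difference of M + G relative to Milk was 1.25 (SE 0.415, 0.36 to 2.15, unadjusted p = 0.00968, adjusted p = 0.940), and these groups did not overlap. M + E2 and M + G differed by 0.59 (−0.18 to 1.35), an interval that holds both 0 and more than a 2-fold difference. M + E2 and M + G share the Milk libraries as their control. Soy, which contains genistein, was at 0.75 relative to Milk (−0.19 to 1.68) and at −1.09 relative to M + E2 (−1.89 to −0.30, adjusted p = 0.239). Soy and M + E2 did not overlap in CCL22, the only 1 of the 9 genes for which this held.

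The call of CCL22 turned on the test and on single libraries, whereas its direction did not. The authors used edgeR's exact test. In M + E2 relative to Milk it was called by DESeq2 (log2 difference 1.87, adjusted p = 0.0419, with 0.780% of all genes called), by edgeR's exact test (1.85, adjusted p = 0.0362, 0.563% of genes), and without Milk 3 (1.94, adjusted p = 0.0245, 8.04% of genes). Over 25 alternatives, the log2 difference was between 1.65 and 2.04 and the adjusted p between 0.0245 and 0.551. Relative to Sow, it was called with all 3 Sow libraries (1.19, adjusted p = 0.0221), a setting that called 18.1% of all genes.

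**Figure D3:**
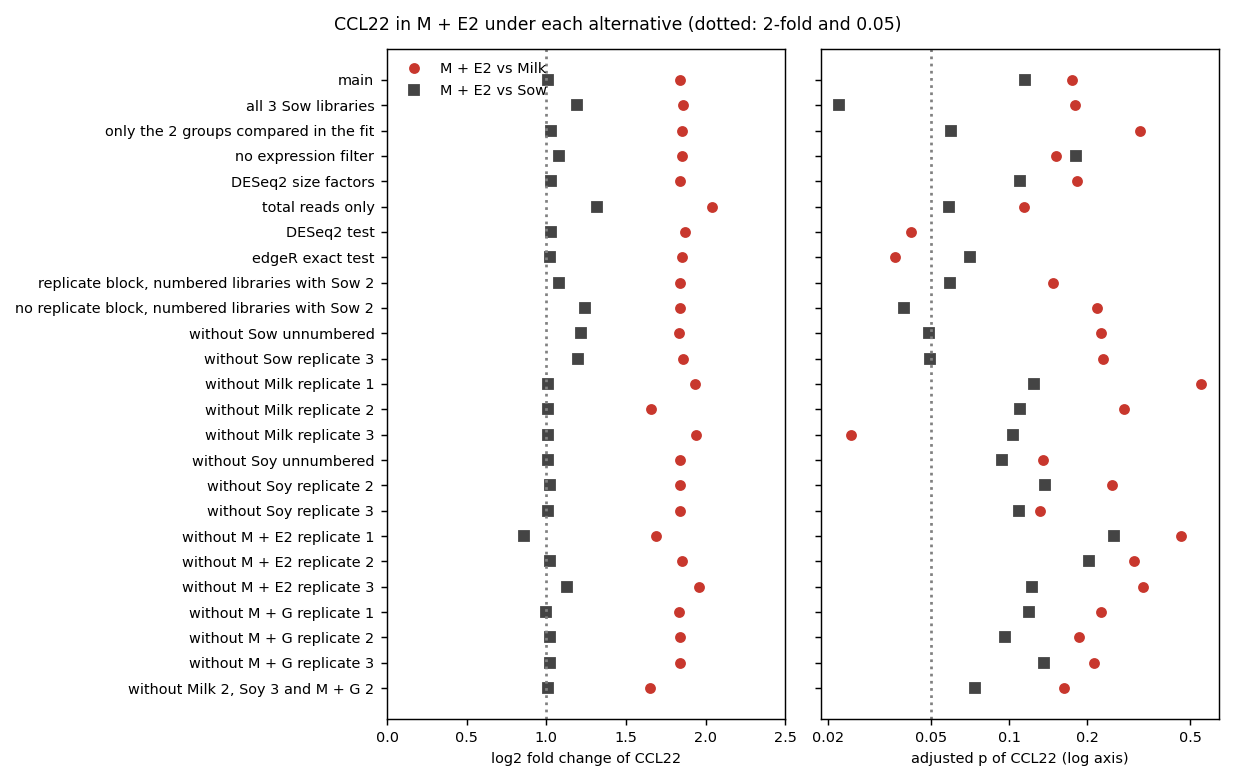
CCL22 in M + E2 relative to Milk (circles) and to Sow (squares) under the reported test and each alternative: log2 fold change at left, Benjamini-Hochberg adjusted p at right on a log axis, with dotted lines at 2-fold and 0.05. Relative to Milk the log2 difference stays between 1.65 and 2.04, and its adjusted p is under 0.05 by DESeq2, by edgeR's exact test and without Milk 3.

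CCR4, the receptor of CCL22, was near the limit of detection, with 0 to 5 reads per library and means of 0.148 to 0.406 CPM by diet, and it did not pass the filter. Levels of dendritic cell markers were also set beside CCL22. Of 8 such genes, 6 were in the table, and none of these was at 0 in all libraries (LAMP3 and CD83 were not analysed here). Their summed level was 33.5 to 41.0 CPM in M + E2, 26.7 to 35.4 in M + G, 22.6 to 27.2 in Soy, 19.8 to 40.0 in Milk and 19.0 to 22.3 in Sow. None was called: ZBTB46, a transcription factor of classical dendritic cells, was at 1.20 in M + E2 relative to Sow (adjusted p = 0.0517), and FLT3, their growth factor receptor, was at 1.10 relative to Milk (adjusted p = 0.206). Each was the only marker of the list with an unadjusted p under 0.05 in its comparison, and CCR7 on the same list was at −0.50 relative to Sow and −0.12 relative to Milk. The medians over the 5 tested markers were 0.34 and 0.21. ZBTB46 alone was the largest part of the dendritic cell sum in M + E2, at 22.5, 27 and 19.4 CPM in libraries 1, 2 and 3. It was also higher than Sow in M + G (1.00, adjusted p = 0.142) and Milk (0.87, adjusted p = 0.395), and its highest library was Milk 3, at 28 CPM. The summed level of the 9 macrophage markers was 324 to 446 CPM in M + E2 and 375 to 820 in Milk. That of the 8 Sertoli cell markers was 7290 to 8150 CPM in M + E2 and 3130 to 5350 in Milk, which did not overlap. CLU was the largest part of it (4020 to 5010 CPM in M + E2 and 1860 to 2960 in Milk). Singly, GATA4 (375 to 410 and 113 to 414 CPM) and DHH (19.5 to 28 and 16.7 to 24 CPM) overlapped, and the other Sertoli cell markers did not. The part of any of these cells in the level of CCL22 was not tested.

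The genes whose log2 CPM was most like that of CCL22 over the 15 libraries, among 12291 with a symbol, included MSH6, a mismatch repair protein (Pearson r = 0.903), BOD1L1, which protects replication forks (0.887), JMY, an actin nucleator (0.886), and PCLO, a scaffold of the presynaptic active zone (0.878). These values are a description, since the libraries share diets and normalization. No other chemokine was near the top of that order: the closest of the other 8 was CCL21, at rank 5016 (r = 0.189).

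CCL19 and CCL21 are the ligands of CCR7, by which T cells and mature dendritic cells home to lymph nodes; CCL21 is also made by lymphatic endothelium. CCL19 (ENSSSCG00000010966, chromosome 10, 32110366 to 32112529) and CCL21 (ENSSSCG00000038162, 32093783 to 32094482) are neighbours in the pig genome. Their levels varied differently, with a ratio of the highest to the lowest library of 12.1 for CCL19 and 2.51 for CCL21.

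CCL19 was uneven within diets. It was at 24.4, 92.9 and 12.7 CPM in Milk 1, 2 and 3. In Soy unnumbered, Soy 2 and Soy 3 it was at 18.8, 9.87 and 56.3 CPM. In M + G 1, 2 and 3 it was at 14.5, 24.9 and 12 CPM. In each of these diets 1 library exceeded the other two, most clearly Milk 2 and Soy 3. By contrast, CCL19 was at 11.1, 13.9 and 10.3 CPM in M + E2 and at 7.67, 10.4 and 11.6 CPM in Sow unnumbered, Sow 2 and Sow 3. The means were 43.3 ± 43.3 CPM in Milk, 28.3 ± 24.6 in Soy, 17.1 ± 6.83 in M + G, 11.8 ± 1.89 in M + E2 and 9.89 ± 2.02 in Sow (SD, n = 3), and every pair of neighbours in this order overlapped.

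The log2 difference of CCL19 in Milk relative to Sow was 2.12 (SE 0.808, 0.38 to 3.86, adjusted p = 0.381), and it was 0.91 without Milk 2. In M + E2 relative to Milk it was −1.90 (SE 0.685, −3.37 to −0.42, adjusted p = 0.223). This comparison rested on the Milk libraries: without Milk 3 it was called (−2.33, adjusted p = 0.0297), and without Milk 2 it was −0.69.

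Milk 2, Soy 3 and M + G 2, the libraries with the highest CCL19 of their diets, were also the highest of all 15 in 4 other chemokine genes, which were chosen after their values were seen. ACKR1, a decoy receptor of venular endothelium and red cells, was at 4.39 to 12.6 CPM in these 3 and at 0.223 to 1.68 in the other 12. CCL14, a ligand of CCR1, was at 8.05 to 19.3 CPM against 2.00 to 4.88. CXCL2, which attracts neutrophils, was at 9.20 to 20.2 CPM against 4.19 to 7.28. ACKR3, a scavenger of CXCL12, was at 36.8 to 57.3 CPM against 14.3 to 31.7. Other chemokines did not separate these libraries: CCL4, a ligand made by activated leukocytes, was at 3.99 to 10.8 against 1.35 to 9.20 CPM, and CCL5, CXCL9, CXCL10 and CXCL11 overlapped as well. The summed level of the 8 stromal markers (collagens, DCN, LUM, smooth muscle genes and PDGF receptors) was 24600 to 30000 CPM in these 3 libraries and 3940 to 11000 in the other 12. Most of the sum in these 3 was COL1A1, at 15500 to 18600 CPM against 1040 to 6480. COL1A2, ACTA2 and MYH11 separated them as well. DCN (750 to 1400 against 447 to 1190 CPM), LUM, PDGFRA and PDGFRB (232 to 310 against 70.2 to 322 CPM) overlapped. The 8 Sertoli cell markers had their lowest sums in the same 3 libraries, at 3130, 3680 and 3690 CPM against 4540 to 8150 in the others. The largest part of these sums was CLU, at 1860, 2210 and 2000 CPM against 2510 to 5010. INHA was also lowest in the 3 libraries. The other Sertoli cell markers overlapped, such as AMH (349 to 553 against 287 to 1270 CPM) and GATA4 (113 to 297 against 172 to 414 CPM). The 6 markers of blood endothelium summed to 1100 CPM in Milk 2, 1170 in Soy 3 and 731 in M + G 2, against 272 to 751 in the others. None of these markers was at 0 in all libraries, and the part of any of these tissues in the chemokine levels was not tested. The genes most like CCL19 over the 15 libraries were BMP4 (r = 0.967), PROCR (0.957), SRPX (0.956), PDE4B (0.956) and SLPI (0.955).

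**Figure D4:**
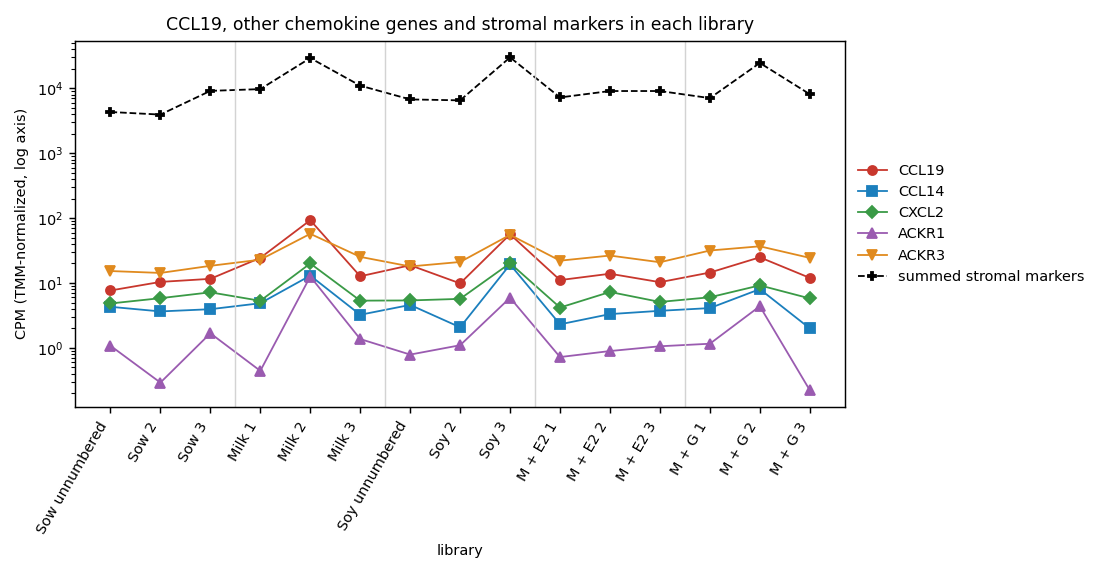
CCL19, CCL14, CXCL2, ACKR1, ACKR3 and the summed level of 8 stromal markers (dashed) in each library, in CPM on a log axis; grey lines separate the diets. Milk 2, Soy 3 and M + G 2 are the 3 highest libraries for each of these series, with CCL19 at 92.9, 56.3 and 24.9 CPM.

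CCL21 was steadier and had its highest mean in M + G. It was at 197, 220 and 205 CPM in M + G 1, 2 and 3. In Soy unnumbered, Soy 2 and Soy 3 it was at 171, 137 and 116 CPM. In Sow unnumbered, Sow 2 and Sow 3 it was at 156, 87.6 and 135 CPM. All M + G libraries were above all Soy and Sow libraries, while M + E2 (164, 213 and 164 CPM) and Milk (205, 172 and 152 CPM) overlapped with M + G. The log2 difference of M + G was 0.48 relative to Sow (SE 0.211, 0.02 to 0.93, adjusted p = 0.198). It was 0.88 without Sow unnumbered (adjusted p = 0.0410) and 0.77 without Sow 3 (adjusted p = 0.0492), each with Sow 2 put back. With all 3 Sow libraries it was 0.72 (adjusted p = 0.0340), and the adjusted p was 0.0388 in a fit of only these 2 groups and 0.0266 by edgeR's exact test, all below a 2-fold change and so not called. The log2 difference of Soy relative to M + G was −0.53 (SE 0.186, −0.93 to −0.12, unadjusted p = 0.0141, adjusted p = 0.999). In the latter comparison, 7.89% of all genes did not overlap. Relative to Milk, M + E2 was at 0.00 (−0.40 to 0.40), an interval that leaves out a change of 2-fold.

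CCR7, the receptor of both, was at 1.97 to 2.83 CPM by diet, and its 10 log2 differences were between −0.55 and 0.43 (lowest adjusted p = 0.378). Lymphatic endothelium, a source of CCL21, was represented by 5 of 6 markers. Their summed level was 85.6 to 139 CPM in Sow, 124 to 205 in M + G and 135 to 179 in Soy. Among them LYVE1, a hyaluronan receptor, was lowest in M + E2 (7.66, 11.2 and 11.6 CPM), with a log2 difference of −1.25 relative to Sow (adjusted p = 0.0627), and FLT4, the receptor of VEGF-C, was at 0.87 in the same comparison (adjusted p = 0.0610). The markers thus pointed in opposite directions, and none was called.

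CCL2 and CCL5 recruit monocytes and T cells. CCL2 (ENSSSCG00000017723, chromosome 12, 40798109 to 40800013) acts through CCR2 on monocytes, and CCL5 (ENSSSCG00000017705, chromosome 12, 39652731 to 39659121) through receptors that include CCR1 and CCR3. CCL2 was at 47.2, 55.2 and 49.4 CPM in Sow unnumbered, Sow 2 and Sow 3. In M + G 1, 2 and 3 it was at 22.1, 38.7 and 27.3 CPM, all below Sow. In M + E2 it was at 35.8, 40.4 and 34.4 CPM, also below Sow. Milk (44.8, 64.0 and 32.9 CPM) and Soy (50, 23.6 and 27.2 CPM) spanned both levels.

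The log2 difference of CCL2 in M + G was −0.75 relative to Sow (SE 0.327, −1.46 to −0.05, adjusted p = 0.191) and −0.68 relative to Milk (SE 0.297, −1.32 to −0.04, adjusted p = 0.940). Relative to Milk it was −0.41 without Milk 2, and relative to Sow the adjusted p was 0.0233 by edgeR's exact test (−0.72, under a 2-fold change). In M + E2 it was −0.46 relative to Sow (−1.16 to 0.25). CCR2 was at 11.6 ± 1.5 CPM in Sow and 7.14 ± 1.11 in M + G (SD, n = 3), with a log2 difference of −0.81 (−1.47 to −0.15, adjusted p = 0.153). Thus ligand and receptor were both lower in M + G than in Sow, each without passing the test. CCR2 was also lower than Sow in the other formula diets, at −0.66 in Milk (adjusted p = 0.413), −0.70 in Soy (0.323) and −0.59 in M + E2 (0.190). The 9 macrophage markers, none at 0 in all libraries, summed to 339 to 476 CPM in M + G and 361 to 447 in Sow, with a median log2 difference of 0.08. AIF1, a member of that list, was at −1.09 (unadjusted p = 0.0276, adjusted p = 0.170). The part of macrophages in the levels of CCL2 and CCR2 was not tested. The gene most like CCL2 was BCL2A1, an NF-κB target that protects leukocytes from apoptosis (r = 0.927).

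The CCL5 means were highest in Milk (15.9 ± 6.58 CPM, SD, n = 3) and lowest in Sow (9.71 ± 2.61), with Soy at 11.8 ± 5.02, M + G at 10.3 ± 4.93 and M + E2 at 10.2 ± 5.04. Within each of the diets other than Sow, library 2 or 3 was the highest: Milk 2 at 23.4, Soy 3 at 17.3, M + E2 2 at 16 and M + G 2 at 15.4 CPM. All 10 intervals of CCL5 held 0, and together they ran from −1.59 to 1.51 on the log2 scale, so that changes of more than 2-fold were not left out.

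CXCL9 and CXCL10 are induced by interferon gamma and attract activated T cells through CXCR3. CXCL10 (ENSSSCG00000032474, chromosome 8, 71693641 to 71695948) and CXCL9 (ENSSSCG00000032777, chromosome 8, 71665541 to 71670236) are neighbours. CXCL10 was at 24.3, 24.7 and 48.3 CPM in Sow unnumbered, Sow 2 and Sow 3. In M + G 1, 2 and 3 it was at 8.73, 10.4 and 12.8 CPM, below every Sow library. In Soy unnumbered, Soy 2 and Soy 3 it was at 22.6, 11.1 and 11.3 CPM, also below Sow. Milk (25.4, 29.4 and 7.22 CPM) and M + E2 (39.7, 25.8 and 7.24 CPM) each held both high libraries and 1 low library.

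The log2 difference of CXCL10 in M + G relative to Sow was −1.80 (SE 0.621, −3.14 to −0.46, unadjusted p = 0.0121, adjusted p = 0.142). The call changed with the test: edgeR's exact test (−1.77, adjusted p = 4.68e-06, 6.17% of all genes called) and a fit of only these 2 groups (−1.77, adjusted p = 0.0126, 5.38% of genes) both called it. Without Sow 3, the highest library, the difference was −1.20. Relative to Milk, CXCL10 in M + G was at −0.95 (−2.19 to 0.29, adjusted p = 0.940). Soy relative to Sow was at −1.28 (−2.61 to 0.04, adjusted p = 0.335).

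CXCL9 was lower and less even. It was at 2.82, 2.48 and 6.47 CPM in Sow unnumbered, Sow 2 and Sow 3. In M + G it was at 2.05, 2.61 and 3.34 CPM. In M + E2 it was at 6.50, 3.32 and 2.45 CPM. These ranges overlapped, as did those of Milk (3.55, 6.70 and 1.49 CPM) and Soy (4.34, 1.21 and 2.62 CPM). Its 10 differences were between −0.83 and 0.57 (lowest adjusted p = 0.413), with intervals from −2.16 to 1.79.

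Across libraries CXCL9 and CXCL10 varied together (r = 0.804, Spearman's rho = 0.832, n = 15), each ranking 4 in the other's order of 12291 genes. CD2, an adhesion receptor of T and NK cells, ranked first for both (r = 0.823 with CXCL10 and 0.811 with CXCL9). These r describe libraries that share diets and normalization. IRF1, an interferon target and transcription factor, ranked 24 for CXCL9 (r = 0.701) and 1977 for CXCL10 (r = 0.427). IFNG was at 0 in 8 of 15 libraries and did not exceed 0.443 CPM.

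**Figure D5:**
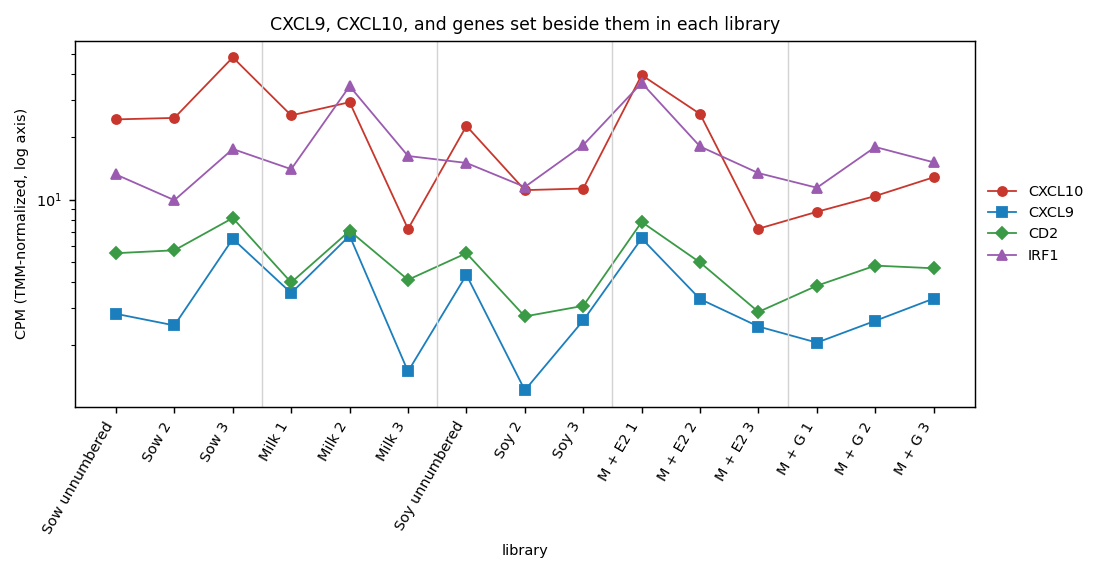
CXCL10, CXCL9, CD2 and IRF1 in each library, in CPM on a log axis; grey lines separate the diets. CXCL10 and CXCL9 are both high in Sow 3 (48.3 and 6.47 CPM) and M + E2 1 (39.7 and 6.50 CPM) and both low in Milk 3 (7.22 and 1.49 CPM).

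Of 12 genes of the interferon gamma response, 9 were tested, and 0 were called in any comparison (5 of 90 tests had an unadjusted p under 0.05). An unadjusted p under 0.05 was found for 2.44% to 33.8% of all genes, depending on the comparison. The list median relative to Sow was −0.26 in M + E2, −0.37 in M + G, −0.33 in Soy and −0.16 in Milk, beside 0.00 to 0.02 over all genes. IDO1, an interferon-induced enzyme of tryptophan breakdown, had few reads, with 4, 0 and 11 in Sow unnumbered, Sow 2 and Sow 3 and 0, 2 and 0 in M + G (adjusted p = 0.163). CXCR3 was at 0.758 to 1.15 CPM by diet (lowest adjusted p = 0.643). T cell markers (8 of 8 in the table, with CD3G at 0 in every library) summed to 49.5 to 67.5 CPM in M + G and 40.7 to 47.9 in Sow, and to 25.5 to 47.8 in M + E2, 40.8 to 53.9 in Milk and 43.8 to 77.3 in Soy. The largest part of the M + G and Soy sums was CD247, a signalling chain of the T cell receptor (32.3 to 45.9 CPM in M + G, 33.4 to 58.6 in Soy and 19.4 to 29.6 in Sow). The 7 others summed to 14 to 21.5 CPM in M + G, 9.98 to 18.7 in Soy and 18.3 to 21.7 in Sow. The median log2 difference over the 6 tested markers relative to Sow was −0.15 in M + G and −0.57 in Soy, opposite in direction to CD247. CD3E, a subunit of the T cell receptor complex, was between 1.99 and 6.20 CPM.

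CXCL12, the ligand of CXCR4 that retains stem cells and germ cells in their niches, was the steadiest of the 9. The gene (ENSSSCG00000034973) lies on chromosome 14 at 91516383 to 91543857. It was at 483, 468 and 422 CPM in Sow unnumbered, Sow 2 and Sow 3, and at 523, 573 and 447 CPM in Milk 1, 2 and 3. In M + E2 it was at 485, 491 and 464 CPM, in M + G at 434, 422 and 471 CPM, and in Soy unnumbered, Soy 2 and Soy 3 at 535, 429 and 334 CPM. All diets overlapped. The coefficient of variation over the 15 libraries was 12.2%, and the 10 intervals together ran from −0.63 to 0.60, which leaves out a change of 2-fold in any pair of diets. With 2933 to 4620 reads per library, counting error was small beside the spread between libraries.

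CXCR4 was at 46.5 ± 13.8 CPM in Sow and 22.5 ± 5.08 in M + G (SD, n = 3), a log2 difference of −0.81 (−1.49 to −0.13, adjusted p = 0.161). In M + E2 it was at 28.3 ± 5.90 CPM, in Milk at 29.7 ± 9.55 and in Soy at 24.9 ± 9.13. ACKR3 was at 16 ± 2.16 CPM in Sow and 23.1 ± 2.93 in M + E2, and at 35.2 ± 19.2 in Milk, 31.4 ± 20.6 in Soy and 31.0 ± 6.26 in M + G (SD, n = 3). Its largest difference was 1.01, in Milk relative to Sow (0.00 to 2.02, adjusted p = 0.411).

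CXCL14, a chemokine made by epithelia and fibroblasts whose signalling receptor is debated, lies on chromosome 2 at 137803988 to 137813118 (ENSSSCG00000014310). The means were 7.25 ± 3.44 CPM in Milk, 7.07 ± 0.983 in M + E2, 6.92 ± 3.67 in Soy, 6.17 ± 1.75 in M + G and 5.23 ± 1.64 in Sow (SD, n = 3), and every diet overlapped with the next. Its lowest library was Soy 2 (3.18 CPM) and its highest Milk 3 (10.8 CPM). The 10 differences were between −0.23 and 0.32 (lowest adjusted p = 0.747). The intervals ran from −1.16 to 1.37.

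CXCR5, the receptor of CXCL13 on B cells and follicular helper T cells, was scarce. It was at 1.53 ± 0.770 CPM in M + E2, 0.521 ± 0.319 in Milk and 0.392 ± 0.0941 in Sow (SD, n = 3), from 0 to 15 reads per library. Its 10 differences were between −0.89 and 1.66 (lowest adjusted p = 0.197). B and plasma cell markers (7 of 8, none at 0 in all libraries, with MS4A1 not analysed here) summed to 117 to 181 CPM in M + E2, 133 to 205 in M + G, 87.7 to 199 in Soy, 128 to 268 in Milk and 179 to 324 in Sow. Most of this was CD79A, part of the B cell receptor (69.9 to 253 CPM). JCHAIN, the joining chain of secreted IgA and IgM, was called in M + E2 relative to Sow and fell by 1.38 on the log2 scale (adjusted p = 0.0381). It was also lower than Sow in the other formula diets, at −1.43 in Milk (adjusted p = 0.360), −1.25 in M + G (0.124) and −0.87 in Soy (0.320). The other cell type markers called were all in the same comparison: PDGFRB, a receptor of mural cells and fibroblasts, at 1.29 (adjusted p = 0.0429, beside 1.13 in Milk, 1.09 in M + G and 0.97 in Soy), SLC4A1, the anion exchanger of red cells, with 2 and 1 reads in Sow unnumbered and Sow 3 and 4, 11 and 48 in M + E2 (adjusted p = 0.0469), and STAR, which delivers cholesterol for steroid synthesis, at −1.53 (adjusted p = 0.0449). Of 14 fits that left out 1 library, 8 called JCHAIN and 7 each of the other markers. All 4 calls were lost without M + E2 1, 2 or 3, Soy 2, M + G 1 or M + G 3, at adjusted p of up to 0.129, and the last 3 also without M + G 2. Among follicular dendritic cell markers, FDCSP was at 0 in every library.

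Among the other ligands of the family, 16 of 26 were in the table and 9 were tested, with 0 called in any comparison and an unadjusted p under 0.05 in 5 of 90 tests (lowest adjusted p = 0.157). The share of all genes with an unadjusted p under 0.05 was 2.44% to 33.8%, depending on the comparison. The 2 with an unadjusted p under 0.05 in M + E2 relative to Milk were CCL11, an eosinophil attractant (1.05, 0.27 to 1.82, adjusted p = 0.209), and CCL28, a chemokine of mucosal epithelia (1.21, 0.20 to 2.23, adjusted p = 0.240). CCL11 was at 4.48, 7.03 and 11.8 CPM in M + E2 and at 2.66, 4.22 and 4.23 CPM in Milk. These ranges did not overlap. CCL27 was at 0 in every library.

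Of the 22 chemokine receptors, 14 were tested and 0 were called in any comparison, with an unadjusted p under 0.05 in 8 of 140 tests (lowest adjusted p = 0.137). Over all genes, that share was 2.44% to 33.8% by comparison. Relative to Sow, 4 had an unadjusted p under 0.05 in M + G, all lower: CCR1, CCR2, CXCR4 and ACKR4, with log2 differences of −1.06, −0.81, −0.81 and −1.0. This was 4 of 14, where 23.6% of all genes had an unadjusted p under 0.05 in either direction and 13.7% were lower. The median over the receptors in that comparison was 0.13. Neutrophils carry CCR1, and the 4 of their 6 listed markers that had a row (0 of them at 0 in all libraries) summed to 21.0 to 78.0 CPM in Sow and to 7.08 to 18.5 CPM over the other diets, without overlap. Singly, only S100A12 did not overlap (5.87 to 28.3 CPM in Sow, 0.125 to 2.98 in the other diets). S100A8 was at 8.74 to 43.2 CPM in Sow and reached 13.6 in Milk 2. CSF3R (1.75 to 3.63 CPM in Sow, 1.63 to 4.35 in the others) and MPO (2.42 to 4.67 and 0.744 to 4.79) overlapped. The part of neutrophils in the receptor levels was not tested. Of the 12 lymphotoxin, TNF and NF-κB genes, which drive homeostatic chemokines in lymphoid stroma, 8 were tested and 0 were called (lowest adjusted p = 0.0808). Relative to Sow, 5 of the 8 had an unadjusted p under 0.05 in M + E2, all higher, against 14.6% of all genes in that direction and 33.8% in either. These 5 were MAP3K14 at 0.72, RELA at 0.52, TNFRSF1A at 0.51, NFKB1 at 0.49 and NFKB2 at 0.36. The median over the 8 was 0.49 in M + E2 and 0.46 in M + G. Relative to Milk, it was 0.06 in both.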

How the data were processed

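RNA of piglet testes was sequenced in 15 libraries, 3 for each of 5 diets. Reads were trimmed and mapped in the CLC Genomics Workbench by the authors, who deposited unnormalized counts of reads per gene and library. Their methods name a first mapping to a curated porcine gene library and a second of the remaining reads to the Ensembl pig genome. Whether the counts hold reads of both mappings was not determined, nor how reads shared by similar chemokine genes were assigned, and strand was not given in the sources used here. The deposited counts were checked to be whole numbers, and 0 columns were left unused. Between 6097552 and 9488579 reads per library set the precision, and intervals from counts cover counting error only.

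Counts were analysed with R 4.3.3, edgeR 4.0.16, limma 3.58.1 and DESeq2 1.42.0: TMM normalization, filterByExpr at a minimum count of 10, and quasi-likelihood F tests in a single fit of the 5 diets without Sow 2, with adjustment over all genes tested. The fit was checked on simulated data. Intervals are at 95% from the fit. CPM was computed over all 15 libraries, with a prior count of 1 for log2 CPM in correlations. M + E2 and Soy relative to M + G were added to the 8 comparisons of the study. Groups came from the sample labels and column names. Since the column names leave 1 Sow and 1 Soy library without a number, these were not numbered by elimination. Identifiers are those of the table, and positions were taken by symbol from the RefSeq annotation of Sscrofa11.1.

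Named genes are the 9 chemokines, their receptors, genes of the other lists that were called, the 5 genes most like CCL22, and defining markers. Other genes were named after their values were seen. The members and lists were chosen with earlier results of these data known. Each library was taken as 1 piglet, and none was treated as a technical replicate. Same-numbered libraries of Milk and M + G deviated together from their group means (r = 0.233, 0.510 and 0.425). No label pairs these diets, and 3 libraries per diet cannot decide whether the numbers do. For M + E2, r was −0.339 to −0.0643 with Milk and −0.147 to 0.123 with M + G. Sow and Soy share only 2 numbers with another diet, too few to decide (r from −0.479 to 0.499, with 0.159 and 0.308 for Sow and Milk). Alternatives were other scalings, filters, tests and sets of libraries. Values of some genes are not reported here.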

Additional observations from a re-analysis of the deposited data

How the results depend on the processing

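The number of chemokine genes called was recomputed for 11 tests under 26 alternatives, and 270 of 284 counts stayed at 0. With all 3 Sow libraries it was 1 in M + E2 relative to Sow and 1 over the 5 diets (CCL22 in both, with 7.62% of all genes passing the latter). In M + G relative to Sow it was 1 (CXCL10) in the fit of only 2 groups and by edgeR's exact test. In M + E2 relative to Milk it was 1 (CCL22) by DESeq2 and by the exact test. Over the libraries left out in turn, it was 0 to 1 in M + E2 relative to Sow (CCL22 without Sow unnumbered or Sow 3, each with Sow 2 put back, at adjusted p = 0.0491 and 0.0493, with 18.4% and 21.3% of all genes called) and 0 to 2 in M + E2 relative to Milk (CCL22 and CCL19 without Milk 3), and 0 in the others. None of 281 recomputed log2 differences of the 11 with an unadjusted p under 0.05 reversed. With at least 10 reads required in every library, CCL22 was not tested. DESeq2 gave no adjusted p for CCL22 in M + E2 relative to Sow or Soy relative to M + E2.

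With the replicate number as a block, over the numbered libraries and with Sow 2, 1 gene was called in M + G relative to Sow (CXCL10, −2.01, adjusted p = 0.0415, 13.0% of all genes), 1 in Soy relative to Sow (CCL2, 15.8% of genes) and 1 over the 5 diets (CCL22, 12.5% of genes). The same libraries without the block, a fit added after the data were seen, gave 1 in M + E2 relative to Sow (CCL22, 1.24, adjusted p = 0.0393, 19.1% of genes) and 1 in Soy relative to Sow (CCL2, 14.4% of genes). M + G relative to Milk, whose same-numbered libraries deviated together, stayed at 0 with the block. CCL22 in Soy relative to M + E2 was −0.69 with the block (adjusted p = 0.616). Leaving out Milk 2, Soy 3 and M + G 2 together, also added later, called no chemokine gene.

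Scaling by total reads alone moved the median log2 difference of all genes to 0.31 in M + E2 relative to Sow, 0.18 in M + G relative to Sow, 0.17 in M + E2 relative to Milk, −0.18 in Soy relative to M + E2, 0.13 in M + E2 relative to M + G and 0.11 in Soy relative to Sow, and moved the mean of CXCL12 to 404 CPM in Sow and 535 in M + E2 and that of CCL2 to 44.4 CPM in Sow and 41.0 in M + E2. Depth limits the values of CCL22, at 4 to 20 reads per library, and of CCR4, CXCR3, CXCR5, IFNG, IDO1 and SLC4A1.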
